A study of Mus musculus with 16 samples.

Results

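The genes described here are the D cyclins Ccnd1, Ccnd2 and Ccnd3, their kinases Cdk4 and Cdk6, the CDK inhibitors Cdkn1a and Cdkn1b, and the Rb family genes Rb1, Rbl1 and Rbl2. They were taken by gene symbol, and all 10 were found among the 31053 rows of the expression table. mRNA was sequenced from 16 samples of C2C12, a mouse myoblast line that fuses into myotubes when it becomes confluent. The samples formed 4 groups of 4, which were wild-type (WT) myoblasts, WT myotubes, Fam134b knockout (KO) myoblasts and Fam134b KO myotubes. Genotype and stage were read from the sample titles, since the separate genotype field lists all samples as unknown, and the labels give no day of harvest. Fam134b encodes a receptor for ER-phagy, the autophagic removal of endoplasmic reticulum. According to the methods, the KO line was made with a lentiviral Cas9 vector, into which a first and a second guide RNA were cloned, and was then drug-selected. Which of the listed guides were used, whether the KO line is 1 clone and whether the WT cells received a control vector are not given in the sources used here. Both genotypes and both stages were kept in DMEM with 10% FBS, and differentiation was spontaneous at confluency. A genotype difference is therefore a difference between a WT and a KO culture of the same line.

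D-type cyclins bind Cdk4 or Cdk6, and the active kinases phosphorylate the pocket proteins Rb1, Rbl1 (p107) and Rbl2 (p130). Hypophosphorylated pocket proteins hold E2F transcription factors in check, so their phosphorylation releases the genes of S phase. Myoblasts leave the cell cycle for good when they become myotubes, and p21, the product of Cdkn1a, and the retinoblastoma protein are textbook components of that exit.

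Values are normalized counts, which are reads per gene scaled between samples, and they were tested after log2(normalized count + 1). They can be compared between samples for a gene. Ratios and sums of different genes were compared between samples only, and which gene had more RNA was not read from them. The reads recovered per sample ranged from 1484750 to 3287461, and the shallowest samples were KO myotube replicates 4 and 2, with 1484750 and 1790524 reads. The floor of 3 reads corresponded to 2.49 to 5.99 normalized counts, and it covers counting error only. Fam134b averaged 207 ± 42.0 (SD, n = 4) normalized counts in WT myoblasts, 232 ± 61.6 in WT myotubes, 27.5 ± 5.49 in KO myoblasts and 41.8 ± 14.0 in KO myotubes, counted over the whole gene and not at the guides' cut sites. The levels of 7 myotube markers, added up per sample, ranged between 1502 and 2231 in WT myoblasts and between 22410 and 34520 in WT myotubes. The same sums were far apart in KO cells, where 22.41 was the highest myoblast value and 10510 the lowest of the myotubes. The myogenic regulator Myog had 0 reads in each KO myoblast sample against a mean of 114 normalized counts in WT myoblasts, and Myod1 averaged 9.62 ± 4.70 against 282 ± 63.7. The summed level of 6 myoblast markers was 262.3 to 366.1 in KO and 1002 to 1487 in WT myoblasts, of which Des, Myod1 and Cdh15 were lower in KO. The same sum was higher in myotubes, at 893.2 to 1192 in KO and 2699 to 3232 in WT, so it does not mark the myoblast stage in these samples. Myf5, another regulator of the myoblast state, averaged 114 in KO and 71.1 in WT myoblasts, with separate ranges and a log2 difference of 0.68 that was not called (limma adjusted p = 0.0955). Of 8 markers of blood, endothelial, fat, bone and cartilage lineages, Sox9 was the 1 gene above 10 normalized counts in any group. Sox9, a cartilage regulator, was higher in KO at both stages, with means of 676 against 349 in myoblasts (log2 difference 0.89, limma adjusted p = 0.00943) and 570.0 against 311 in myotubes (0.84, adjusted p = 0.0122), and its part in the genotype differences was not tested. KO myoblast samples were thus far lower in muscle genes than WT myoblast samples, and the part of this in the genotype differences below was not tested. In such bulk samples, fewer cells of a type and less RNA per cell cannot be told apart.

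Differentiation raised Ccnd3, Cdkn1a and Rb1 and lowered Ccnd1 in both genotypes. In WT cells 6 of 10 members were called at an adjusted p under 0.05 (limma, Benjamini-Hochberg over 10767 genes), with 4 higher and 2 lower, beside a background of 23.0% of all genes tested, 13.8% higher and 9.16% lower. By the deposited scaling 60.1% of the genes called in WT differentiation were higher, and after quantile normalization 49.7% were. In KO cells 5 of 10 were called, 3 higher and 2 lower, beside 33.4% of all genes, 17.3% higher and 16.1% lower. Between genotypes, 6 of 10 members differed in myoblasts, 1 higher and 5 lower in KO, beside 15.8% of all genes, 7.26% higher and 8.50% lower. In myotubes 5 of 10 differed, 1 higher and 4 lower in KO, beside 23.4% of all genes, 9.74% higher and 13.7% lower. No member passed the test for a genotype by differentiation interaction, beside 3.45% of all genes, and 3 had an unadjusted p under 0.05. All 10 members passed the filter of 10 normalized counts in 4 samples, but Ccnd2 reached that level in the 8 WT samples alone. Its genotype difference was therefore favoured by the filter, and without it 5 of 9 members differed between genotypes in myoblasts and 4 of 9 in myotubes.

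**Figure D1:**
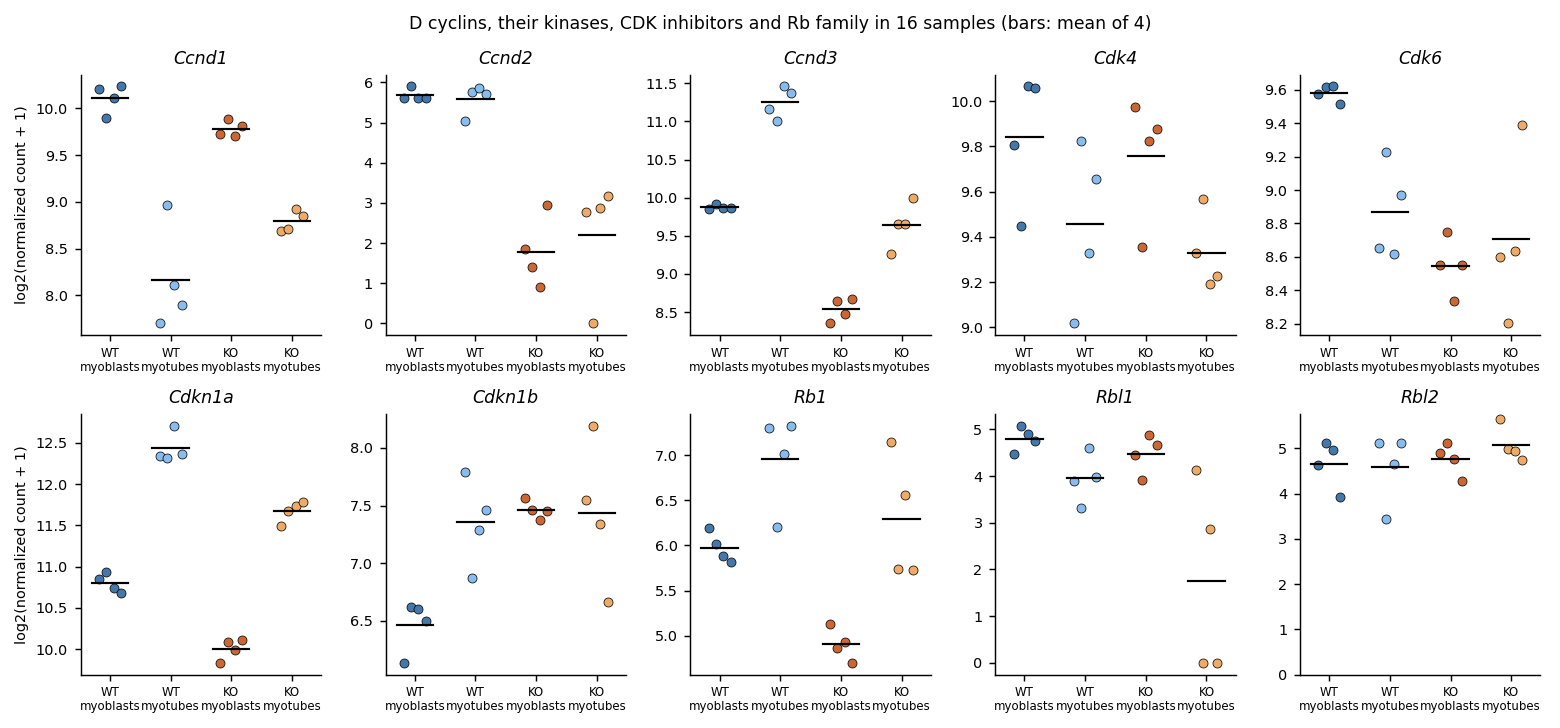
Level of each of the 10 genes in the 16 samples, as log2(normalized count + 1) on a separate axis per gene; points are samples in replicate order and bars are means of 4. Ccnd3 and Cdkn1a rose from myoblasts to myotubes in both genotypes with no overlap between the stages, and Ccnd2 was near the floor in all 8 KO samples.

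Ccnd1 encodes cyclin D1, the D cyclin most tied to growth signals in proliferating myoblasts. It lies on chr7:144929931-144939925, on the minus strand (ENSMUSG00000070348, GRCm38). In replicate order, its normalized counts were 1176, 953, 1105 and 1202 in WT myoblasts and 207, 498, 275 and 237 in WT myotubes. In KO cells they were 846, 944, 832 and 893 in myoblasts and 411, 417, 485 and 462 in myotubes. Each myoblast sample was above each myotube sample of its genotype, and WT myotube replicate 2 stood above the other WT myotubes. The fall with differentiation was 1.94 ± 0.20 (SE) on the log2 scale in WT cells, from a mean of 1109 ± 112 (SD, n = 4) to 304 ± 132 (limma adjusted p = 3.36e-07). In KO cells the log2 fold change was -0.99 ± 0.20, from 879 ± 50.7 to 444 ± 35.4 (adjusted p = 0.000639). In myotubes Ccnd1 was higher in KO than in WT by 0.63 ± 0.20 (adjusted p = 0.0256), and the groups overlapped through WT replicate 2. That call was lost in the fit of only those 8 samples (adjusted p = 0.102) and when both shallow KO myotube samples were left out (adjusted p = 0.0705). It was also lost without any 1 of WT myotube replicates 1, 3 and 4 or KO myotube replicate 3, with adjusted p from 0.0603 to 0.0926. In myoblasts the log2 difference between KO and WT was -0.33, with a 95% interval of -0.74 to 0.08 (adjusted p = 0.300), although the ranges did not overlap. The interaction was 0.96 ± 0.28 (adjusted p = 0.0624), so a smaller fall in KO cells did not pass the test, while without WT myotube replicate 2 it was 1.22 (adjusted p = 0.00102).

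Ccnd2, which encodes cyclin D2 (chr6:127125162-127152193, minus strand, ENSMUSG00000000184), was present in WT cells and near the detection floor in KO cells. The normalized counts were 48.0, 58.8, 48.0 and 48.1 in WT myoblasts and 31.9, 53.1, 57.6 and 51.5 in WT myotubes. They were 2.62, 1.66, 0.868 and 6.67 in KO myoblasts and 5.81, 0, 6.30 and 7.99 in KO myotubes. The WT samples rested on 37 to 62 reads each and the KO samples on 0 to 8, and the genotypes did not overlap at either stage. The log2 difference between KO and WT was -3.91 ± 0.54 in myoblasts (limma adjusted p = 1.64e-05) and -3.40 ± 0.54 in myotubes (adjusted p = 0.000124). By the group means, WT was higher 17.2 times in myoblasts and 9.66 times in myotubes. No change with differentiation passed the test, at -0.09 in WT (interval -1.22 to 1.04) and 0.42 in KO cells (interval -0.71 to 1.55). Without KO myotube replicate 2, which had 0 reads, the latter was 1.16 (adjusted p = 0.0254), at levels of few reads.

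Ccnd3 encodes cyclin D3, known as the D cyclin that accumulates in differentiating muscle cells. It spans chr17:47505051-47599691 on the plus strand (ENSMUSG00000034165). In WT cells the normalized counts were 920.0, 969, 931 and 933 in myoblasts and 2293, 2059, 2815 and 2661 in myotubes. In KO cells they were 325, 398, 353 and 408 in myoblasts and 609.9, 805, 804 and 1019 in myotubes. The stages were separate in both genotypes, the genotypes were separate at both stages, and KO myotubes overlapped WT myoblasts. The rise with differentiation was 1.38 ± 0.16 in WT cells (limma adjusted p = 2.15e-06) and 1.11 ± 0.16 in KO cells (adjusted p = 1.81e-05). KO was lower than WT, with a log2 difference of -1.34 ± 0.16 in myoblasts (adjusted p = 1.98e-06) and of -1.61 ± 0.16 in myotubes (adjusted p = 6.03e-07). The interaction of -0.27 had an interval of -0.74 to 0.20 and did not pass the test (adjusted p = 0.574).

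The RefSeq promoter table for GRCm38.p6 gave windows for 7 of the 10 members. Ccnd1, Ccnd2 and Rb1 are named only. Stretches upstream of the start sites are shown for Ccnd3 and Cdkn1a, the members that rose in both genotypes and were lower in KO at both stages, with both annotated starts of each. Cdk4, which like Rbl2 had no call in any comparison, is shown for contrast. Its stretch has 250 bases and the others have 150. All are from the plus strand, 5′ to 3′, and end at the base before the start site.

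Ccnd3, distal start, chr17:47504901-47505050: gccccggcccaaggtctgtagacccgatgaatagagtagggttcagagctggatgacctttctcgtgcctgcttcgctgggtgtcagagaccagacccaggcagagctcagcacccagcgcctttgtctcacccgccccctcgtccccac
Ccnd3, proximal start, chr17:47593317-47593466: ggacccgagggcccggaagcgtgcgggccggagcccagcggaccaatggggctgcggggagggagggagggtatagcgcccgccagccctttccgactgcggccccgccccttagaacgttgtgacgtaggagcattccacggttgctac
Cdkn1a, upstream start, chr17:29090829-29090978: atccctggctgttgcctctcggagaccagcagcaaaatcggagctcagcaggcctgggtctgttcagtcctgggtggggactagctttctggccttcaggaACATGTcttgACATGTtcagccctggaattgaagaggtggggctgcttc
Cdkn1a, downstream start, chr17:29093619-29093768: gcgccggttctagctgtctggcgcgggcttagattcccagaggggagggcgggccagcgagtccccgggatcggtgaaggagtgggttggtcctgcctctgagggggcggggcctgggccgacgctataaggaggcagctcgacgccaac
Cdk4, chr10:127063285-127063534: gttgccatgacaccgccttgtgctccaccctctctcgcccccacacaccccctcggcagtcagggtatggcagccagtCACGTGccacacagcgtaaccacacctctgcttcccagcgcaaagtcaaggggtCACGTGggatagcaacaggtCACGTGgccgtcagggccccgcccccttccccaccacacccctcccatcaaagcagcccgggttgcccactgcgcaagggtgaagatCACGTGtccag

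Capitals mark matches to words that were searched on both strands in windows from 250 bases before to 50 after each start. The E2F-type words TTTGGCG and GCGGGAA were in none of the 9 member windows and in 5.99% of 32817 promoter windows. The E-box CAGCTG, a word bound by myogenic factors, was in the upstream Cdkn1a window, within its 50 bases past the start, and in the Rbl1 window, beside 16.3% of all windows. The CHR word TTTGAA was in the Rbl2 window, beside 17.9%. Both of the following words, and their cut-offs of at least 4 and at least 2 matches, were set after the sequences had been read. The shares of windows that reach those cut-offs are therefore a description and not a test. CACGTG, the E-box of Myc-type factors, matched 4 times in the Cdk4 window and 1 time in the Cdk6 window. At least 1 match was in 7.15% of all windows and at least 4 were in 0.0244%. ACATGT matched 2 times in the upstream Cdkn1a window, beside 0.329% of windows with at least 2. A match of letters is a description and not a bound site, and a lack of one says only that the letters are not in the window.

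**Figure D2:**
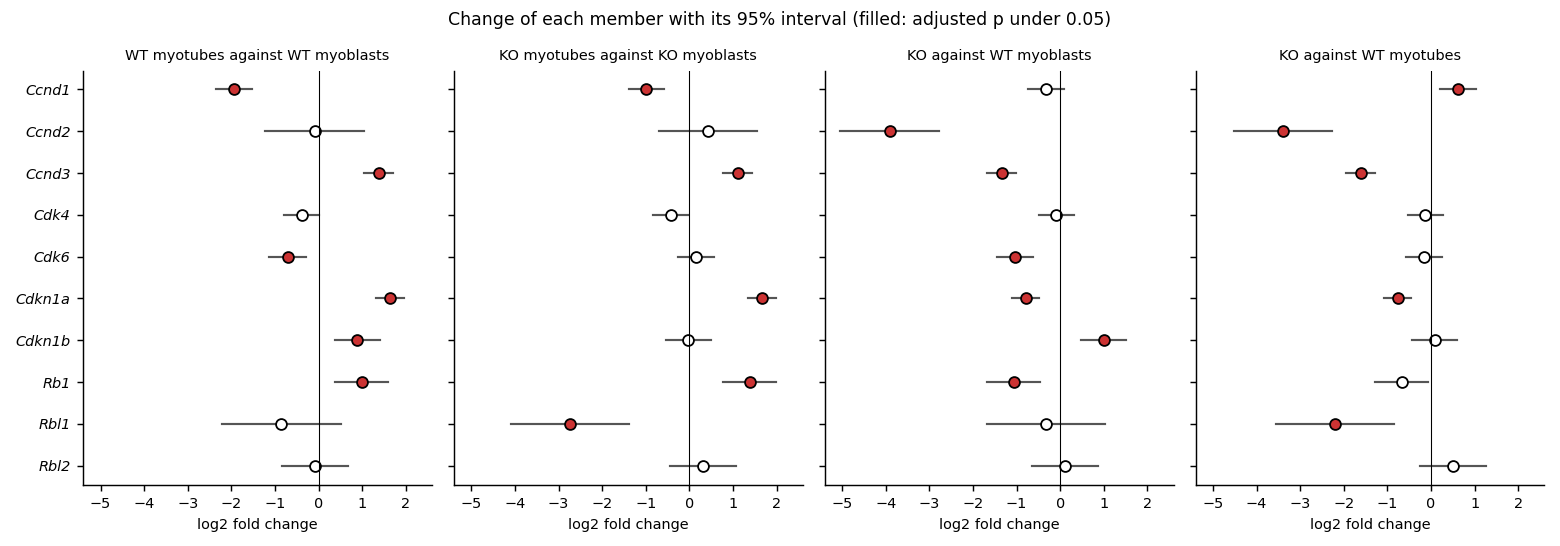
Log2 fold change of each gene in the 4 comparisons, with its 95% interval from limma; filled points had an adjusted p under 0.05. The Ccnd3 and Cdkn1a points lie right of 0 in both differentiation comparisons and left of 0 in both genotype comparisons.

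Cdk4 and Cdk6 encode the kinases that the D cyclins activate. Cdk4 (chr10:127063534-127067920, plus strand, ENSMUSG00000006728) gave normalized counts of 893, 697, 1071 and 1064 in WT myoblasts and 517, 907, 641 and 805 in WT myotubes. In KO cells the values were 1005, 654, 905 and 940.2 in myoblasts and 642, 757, 584 and 597 in myotubes. The 4 groups overlapped with their neighbours in level. The log2 change with differentiation was -0.39 in WT (interval -0.79 to 0.01, adjusted p = 0.153) and -0.43 in KO cells (interval -0.83 to -0.03, adjusted p = 0.0888). With limma sample weights these were called, at -0.38 (adjusted p = 0.0329) and -0.59 (adjusted p = 0.0153), and the KO change was also called without KO myoblast replicate 2 (-0.56, adjusted p = 0.0314). Those weights raised the calls over all genes from 2474 to 4683 in WT and from 3591 to 3990 in KO differentiation. The genotype differences were -0.09 in myoblasts (interval -0.48 to 0.31) and -0.13 in myotubes (interval -0.53 to 0.27), neither passing the test.

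Cdk6 (chr5:3341485-3531008, plus strand, ENSMUSG00000040274) was highest in WT myoblasts, with normalized counts of 761, 785, 787 and 729.9. WT myotubes gave 402, 599, 391 and 500.3. KO myoblasts gave 374, 429, 322 and 374, and KO myotubes gave 386, 293, 397 and 669. WT myoblasts were above every other sample, and the other groups overlapped with one another. Cdk6 fell by 0.71 on the log2 scale in WT differentiation (SE 0.20, limma adjusted p = 0.0132), and the KO change was 0.16 (interval -0.26 to 0.57). In myoblasts KO was lower than WT, at a log2 difference of -1.04 ± 0.20 (adjusted p = 0.000698), and in myotubes the difference was -0.16 (interval -0.58 to 0.25). The interaction was 0.87 ± 0.28 with an adjusted p of 0.0989, so the unequal change was not called. KO myotube replicate 4, the shallowest sample, held the highest KO value.

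Cdkn1a, which encodes the CDK inhibitor p21 (chr17:29090976-29100727, plus strand, ENSMUSG00000023067), had 4 groups that were all separate. The normalized counts were 1838, 1962, 1702 and 1634 in WT myoblasts and 5203, 5124, 6696 and 5255 in WT myotubes. They were 912, 1083, 1013 and 1105 in KO myoblasts and 2869.6, 3273, 3405 and 3529 in KO myotubes. The order was KO myoblasts, WT myoblasts, KO myotubes and WT myotubes, with no overlap between neighbours. The rise with differentiation was 1.64 ± 0.15 in WT (limma adjusted p = 8.44e-08) and 1.67 ± 0.15 in KO cells (adjusted p = 3.09e-08). The interaction of 0.03 had an interval of -0.41 to 0.48. KO was lower than WT, with a log2 difference of -0.79 ± 0.15 in myoblasts (adjusted p = 0.000614) and of -0.76 ± 0.15 in myotubes (adjusted p = 0.000934).

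Cdkn1b encodes the related inhibitor p27 (chr6:134920401-134925513, plus strand, ENSMUSG00000003031), and it was the 1 member higher in KO than in WT myoblasts. The normalized counts were 69.2, 97.4, 96.1 and 89.1 in WT myoblasts and 220.2, 116, 155 and 175 in WT myotubes. KO myoblasts gave 188, 175, 165 and 174, and KO myotubes gave 186, 292, 161 and 99.9. WT myoblasts lay below every other sample, and the other 3 groups overlapped with their neighbours. The WT rise with differentiation was 0.89 ± 0.25 (limma adjusted p = 0.0130), which was lost without WT myotube replicate 1 (adjusted p = 0.0592). In KO cells the change was -0.03 (interval -0.54 to 0.49). KO myoblasts were higher than WT myoblasts by 1.00 ± 0.25 (adjusted p = 0.00683), and the myotube difference was 0.08 (interval -0.43 to 0.60). The interaction of -0.92 ± 0.35 was not called (adjusted p = 0.164).

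Rb1 encodes the retinoblastoma protein (chr14:73183673-73325822, minus strand, ENSMUSG00000022105). WT myoblasts gave 72.0, 63.7, 58.0 and 55.3 normalized counts and WT myotubes gave 157, 72.9, 128 and 159.5. KO myoblasts gave 34.1, 28.2, 29.5 and 25.0, and KO myotubes gave 140.4, 52.5, 93.6 and 52.0. Myotubes were above myoblasts in every sample of each genotype, and both KO myotube samples near 52 normalized counts were the shallow ones. The rise was 0.99 ± 0.29 in WT (limma adjusted p = 0.0183) and 1.38 ± 0.29 in KO cells (adjusted p = 0.000983). The WT call was lost without WT myoblast replicate 3 or 4 or WT myotube replicate 1 or 4, with adjusted p from 0.0501 to 0.0691. The KO rise was 1.94 (adjusted p = 2.80e-05) without both shallow samples. The log2 difference between KO and WT myoblasts was -1.07 ± 0.29 (adjusted p = 0.0138), with no overlap. In myotubes the groups overlapped and the difference was -0.67 (interval -1.27 to -0.06, adjusted p = 0.103). It was called without WT myotube replicate 2 (-0.92, adjusted p = 0.0253) or KO myotube replicate 1 (-0.95, adjusted p = 0.0170).

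Rbl1 encodes p107, the pocket protein linked to cycling cells, and it had few reads (chr2:157145893-157204534, minus strand, ENSMUSG00000027641). The normalized counts were 21.2, 32.8, 29.0 and 25.8 in WT myoblasts and 13.8, 8.996, 23.2 and 14.9 in WT myotubes. KO myoblasts gave 21.0, 14.1, 28.6 and 24.2, and KO myotubes gave 16.5, 0, 6.30 and 0. Both zeros were in the shallow samples, where the floor of 3 reads was 4.38 and 5.99 normalized counts. The log2 change with differentiation was -2.73 ± 0.65 in KO cells (limma adjusted p = 0.00283) and -0.85 ± 0.65 in WT cells (adjusted p = 0.367). Leaving out both shallow samples made the KO change -0.98 (adjusted p = 0.0668). The WT change was called when only those 8 samples were fitted (adjusted p = 0.0383). In myotubes the log2 difference between KO and WT was -2.20 ± 0.65 (adjusted p = 0.0180), which became -0.45 (adjusted p = 0.458) without both shallow samples. That call was also lost when only the myotubes were fitted (adjusted p = 0.0955), and without WT myotube replicate 3 or KO myotube replicate 2 or 4, with adjusted p from 0.0562 to 0.0636.

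Rbl2 encodes p130, the pocket protein linked to resting cells (chr8:91070057-91123844, plus strand, ENSMUSG00000031666). It gave 24.0, 33.8, 30.0 and 14.3 normalized counts in WT myoblasts and 33.7, 9.90, 24.2 and 33.7 in WT myotubes. KO myoblasts gave 28.9, 34.0, 26.0 and 18.4, and KO myotubes gave 49.4, 30.6, 29.7 and 26.0. The 4 groups overlapped. Rbl2 was called in no comparison, and its log2 differences ran from -0.08 in WT differentiation (interval -0.84 to 0.68) to 0.50 between KO and WT myotubes (interval -0.26 to 1.26). Such intervals leave room for changes of the size called for other members.

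Ratios between members were then taken within each sample, where scaling between samples cancels apart from the added 1. The log2 ratio of Ccnd3 to Ccnd1 averaged -0.24 ± 0.18 (SD, n = 4) in WT myoblasts, 3.08 ± 0.70 in WT myotubes, -1.25 ± 0.10 in KO myoblasts and 0.85 ± 0.25 in KO myotubes. These 4 groups did not overlap. The ratio rose by 3.32 in WT and 2.09 in KO cells, and KO stood at -1.01 against WT in myoblasts and -2.24 in myotubes. The log2 ratio of Cdkn1a to Ccnd1 rose by 3.58 in WT and 2.65 in KO cells, and KO stood at -0.46 in myoblasts and -1.39 in myotubes. Each of these 8 differences had a two-sided exact permutation p of 0.0286, the smallest that 4 against 4 can give, and 0.0343 after adjustment over the 12 ratio tests. The log2 ratio of Rbl2 to Rbl1 rose by 3.05 in KO differentiation and was 2.70 higher in KO than in WT myotubes (both exact p = 0.0286, adjusted 0.0343), and both differences rest in part on the samples with 0 Rbl1 reads. It differed by 0.77 in WT differentiation (exact p = 0.143, adjusted 0.156) and by 0.43 between KO and WT myoblasts (exact p = 0.400, adjusted 0.400).

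**Figure D3:**
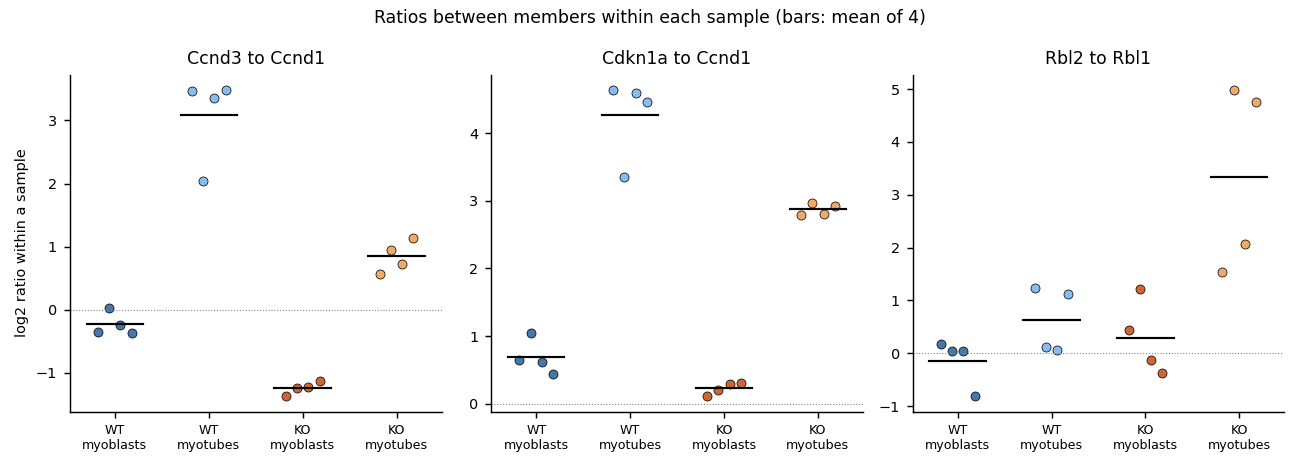
Log2 ratio of Ccnd3 to Ccnd1, Cdkn1a to Ccnd1 and Rbl2 to Rbl1 in each of the 16 samples; bars are means of 4. The Ccnd3 to Ccnd1 ratio ran from -1.25 in KO myoblasts to 3.08 in WT myotubes, with the 4 groups separate.

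The other genes of the G1/S engine, which are partner cyclins, kinases and regulators, fell more often than they rose. Of 18 listed genes 16 were tested, since Cdkn2a and Cdkn2b had 0 reads in all 16 samples. In WT differentiation 1 rose and 6 fell, and in KO differentiation 1 rose and 7 fell. The share that fell was 37.5% and 43.75%, beside 9.16% and 16.1% of all genes. The riser in both was Cdkn1c, the gene of the CDK inhibitor p57, at 2.08 ± 0.27 in WT (limma adjusted p = 1.04e-05) and 2.49 ± 0.27 in KO cells (adjusted p = 4.56e-07). Its mean normalized count went from 26.7 to 118 in WT and from 19.5 to 110 in KO cells. Cyclin E genes, whose products activate Cdk2 at S phase entry, fell in both genotypes. On the log2 scale Ccne2 fell by 1.94 and Ccne1 by 1.47 in WT cells, and by 2.31 and 1.30 in KO cells. Ccna2, the gene of cyclin A2, fell by 2.21 in KO and by 0.80 in WT differentiation, and the interaction of -1.42 ± 0.25 passed the test (adjusted p = 0.00168). In KO against WT, 2 genes were lower in myoblasts and 8 in myotubes, with none higher. The share that was lower was 12.5% and 50%, beside 8.50% and 13.7% of all genes. Genes called in either direction were 15.8% and 23.4% of all genes, and the myoblast share rests on 2 genes. The Ccne2 call in myoblasts was lost without any single myoblast sample. The named myoblast genes were Ccne2 (-1.16) and Cks1b (-0.90), which encodes a CDK-binding subunit, and the myotube genes were Ccna2 (-1.76) and Ccne2 (-1.53). Genes lower in KO myotubes also included the CDK inhibitor genes Cdkn2c (-0.90) and Cdkn2d (-0.62), and Fbxw7 (-0.57). Both inhibitor genes were among those that fell in KO differentiation (-1.13 and -0.56). Without 1 sample at a time, the Fbxw7 call held in 3 of 16 fits and each Cdkn2d call in 12. The median log2 change was -0.08 and -0.41 in WT and KO differentiation, beside -0.01 and -0.02 over all genes tested, and -0.33 and -0.60 in KO against WT myoblasts and myotubes, beside -0.01 and -0.07.

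All 16 listed E2F factors, DP partners and MuvB genes, which act with the pocket proteins, were tested. In WT differentiation 4 fell and none rose, a count that went to 0 without WT myotube replicate 1, to 1 without WT myoblast replicate 4 or WT myotube replicate 3, and to 2 without WT myoblast replicate 2 or 3 or WT myotube replicate 4. These 4 are 25% of the list, beside 9.16% of all genes that fell and 23.0% called in either direction. In KO differentiation 1 rose and 6 fell, 43.75% called beside 33.4% of all genes. Mybl2, the B-Myb gene, fell by 1.11 in WT and by 2.61 in KO cells, with E2f1 falling by 0.92 in WT and E2f7, a repressor E2F, falling by 1.78 in KO cells. The riser was E2f2, an activator E2F, at 2.11 ± 0.29 in KO cells (limma adjusted p = 1.17e-05). Its mean was 231 in WT myoblasts, 325 in WT myotubes, 24.9 in KO myoblasts and 108 in KO myotubes. E2f2 was lower in KO than in WT myoblasts, at a log2 difference of -3.26 ± 0.29 (adjusted p = 3.50e-08), and it was 1 of 2 called genes there with E2f8 (-1.13). Both were lower in KO, a share of 12.5% beside 8.50% of all genes that were lower and 15.8% called in either direction. The E2f8 call was lost without any 1 of the 4 WT myoblast samples or KO myoblast replicates 2, 3 and 4, while the E2f2 call was kept without each of the 16 samples. In myotubes 7 genes were lower in KO and none higher, led by E2f8 (-2.57) and Mybl2 (-1.82). This is 43.75% of the list, beside 13.7% of all genes that were lower and 23.4% called in either direction. Without both shallow samples this count of 7 was 4, while calls over all genes in that comparison went from 2521 to 2207. List medians were -0.35, -0.30, -0.29 and -0.63 for WT differentiation, KO differentiation, and KO against WT in myoblasts and in myotubes, beside -0.01, -0.02, -0.01 and -0.07 over all genes tested.

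Among 15 E2F target genes of S phase, which encode replication and nucleotide synthesis proteins and, in Mki67, a marker of proliferation, 11 fell in WT and 15 in KO differentiation, and none rose. These are 73.33% and 100% of the list, beside 9.16% and 16.1% of all genes that fell. The WT count was 8 to 14 when 1 sample at a time was left out, and 11 without WT myotube replicate 2, the highest WT myotube sample for 8 of the 15 genes and for Ccnd1. The leading falls were Cdc6 at -1.28 and Tk1 at -1.19 in WT, and the helicase subunits Mcm5 at -2.52 and Mcm6 at -2.36 in KO cells. In KO against WT, 2 were lower in myoblasts, Rrm2 (-1.01) and Tyms (-0.69). These 2 genes are 13.33% of the list, beside 8.50% of all genes that were lower and 15.8% called in either direction. In myotubes 11 were lower, led by Mki67 (-1.76) and Rrm2 (-1.64). They are 73.33% of the list, beside 13.7% of all genes that were lower and 23.4% called in either direction. With both shallow samples left out, 9 were lower there, with 2207 of all genes called instead of 2521. Mcm5 averaged 1114 in WT myoblasts and 578 in WT myotubes, against 1161 and 211 in KO cells, and its interaction was -1.54 ± 0.29 (limma adjusted p = 0.00325). The interaction was called for 4 of the 15 genes, or 26.67% beside 3.45% of all genes, each with the larger fall in KO cells. The list medians were -0.84 in WT and -1.74 in KO differentiation, and -0.11 and -0.95 in KO against WT myoblasts and myotubes, beside the same all-gene medians as above. The comparisons within a genotype and between genotypes share their samples, so these counts are not independent of one another.

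**Figure D4:**
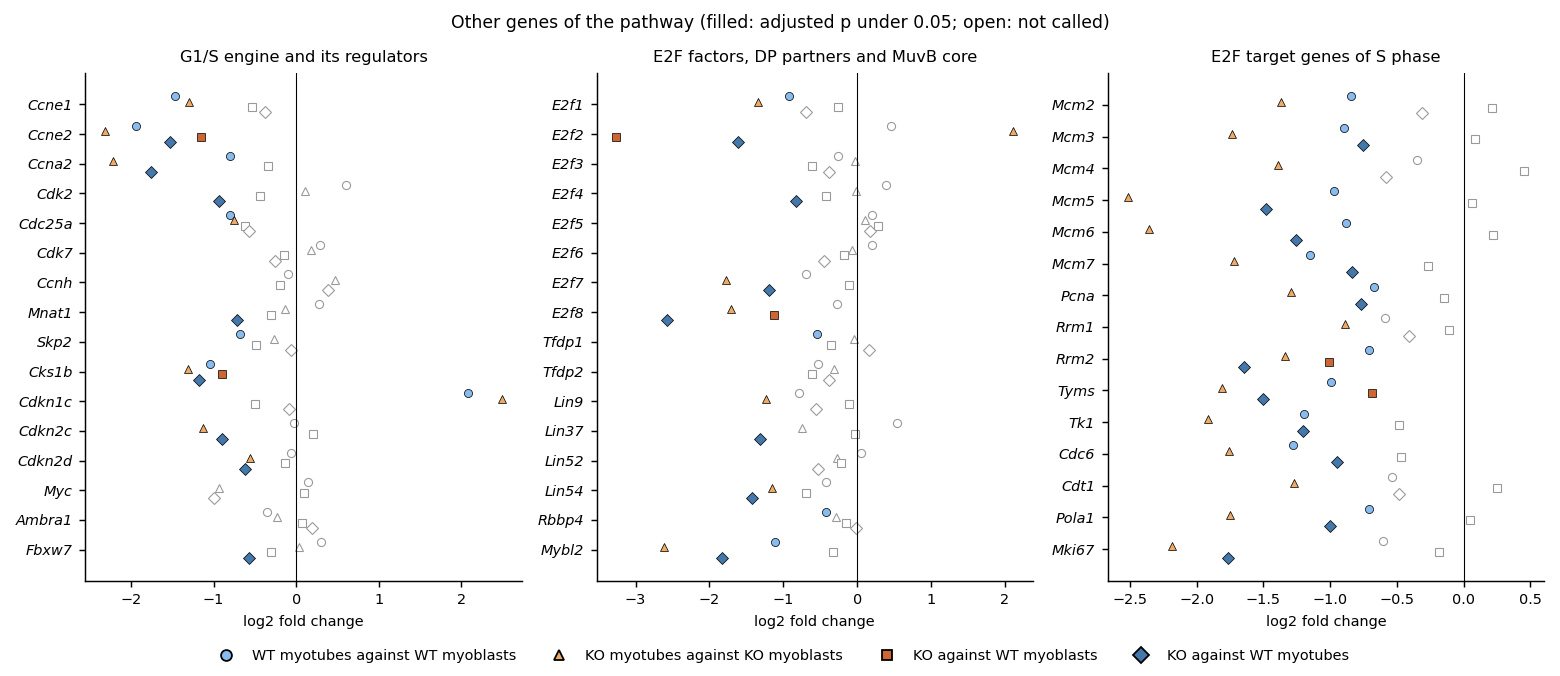
Log2 fold change of the tested genes of 3 pathway lists in the 4 comparisons (marker shapes); filled points had an adjusted p under 0.05 and open points did not. All 15 S phase target genes fell in KO differentiation, and Cdkn1c and E2f2 are the filled points to the right of 0.

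The genes most like 5 of the members were sought among 6973 tested genes with a mean of at least 50 normalized counts, by Pearson's r of log2 values over the 16 samples. The samples share 4 groups, so r mostly carries the group means and is given as a description. For Rbl1, r also carries the spread within KO myotubes (SD 2.08 on the log2 scale), where the shallow replicates 2 and 4 had 0 reads. Closest to Cdkn1a were Srl (r = 0.991), Alpk3 (0.988) and Cav3 (0.987), genes known for their expression in striated muscle. Closest to Ccnd3 were Neurl1a (0.972), Ngrn (0.955) and the imprinted RNA H19 (0.954). Rb1 was closest to Rbm24 (0.943), an RNA-binding protein gene of muscle, then Crabp2 (0.915) and AI467606 (0.915). For Ccnd1 these were Cd24a (0.956), Cnn1 (0.948) and Sfxn1 (0.936), and for Rbl1 they were Psip1 (0.923), L3mbtl2 (0.914) and Twf1 (0.908).

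Several members share exonic sequence with a gene on the opposite strand, and whether counting used strand is not given in the sources used here. In the GENCODE M21 annotation, exons of Ccnd3 overlap Bysl, those of Cdk4 overlap Tspan31, those of Rb1 overlap Rcbtb2 and Lpar6, those of Rbl2 overlap Aktip, and those of Ccnd1 overlap the gene listed in the table as Oraov1. None of these 6 neighbours was called in any comparison by limma, the nearest being Tspan31 in WT differentiation (0.74 ± 0.31, adjusted p = 0.0843). Ccnd2, Cdk6 and Cdkn1a overlap non-coding or unclassified models instead. Of the 31-base words in the last 500 transcript bases, Ccnd3 shared 7.66%, Cdk6 5.69%, Cdk4 3.85% and Rbl1 1.12% with another gene on the same strand, and the other members shared none. On the opposite strand the shares were larger, at 35.1% for Rbl2, 34.1% for Ccnd1, 30.5% for Rb1, 26.2% for Cdk4, 14.3% for Cdk6, 8.6% for Ccnd3 and 0.638% for Rbl1. If counting ignored strand, reads in these stretches cannot be told apart between the partners.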

How the data were processed

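The authors' provider trimmed reads with bbduk, removed ribosomal and phiX reads, aligned with STAR 2.6.0a and counted genes with HTSeq, per the labels and methods, and mm10 is named in the submitters' processing notes. The deposited values are log2 values, log2(normalized count + 1), and the normalization tool is not given in the sources used here. In each sample 100% of values were whole multiples of 1 step (tolerance 0.01), which gave the reads. 10767 genes with at least 10 normalized counts in at least 4 samples were fitted on all 16 samples with limma 3.58.1 (R 4.3.3, 4 group means, trended variance) and Benjamini-Hochberg adjustment over all of them. Ratios were tested by two-sided exact permutation. Replicates are labelled biological, with no culture or day given. The 10 members were named in full. Each pathway list gave up to 2 called genes with the largest positive and up to 2 with the largest negative change per comparison, and 5 members gave their 3 most correlated genes. Mcm3 and Cdkn2c are named as interaction calls. The neighbours, Cdkn2a, Cdkn2b, Cdkn2d, Fbxw7, Ccne1 in KO cells and the other Cdkn2c changes were named after their values were seen. 1 gene of the S phase list is not reported here and was left out of its counts. Members and lists were chosen with earlier results of these data known. Alternatives varied the pseudocount, filter, scaling, samples, weights and threshold, used limma voom on recovered reads, added a replicate block, and left out each sample. The code was tested on simulated data.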

Additional observations from a re-analysis of the deposited data

Results flagged for a closer look

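Among 52 sets of 4 samples examined, 6 had a sample whose gap to its nearest neighbour, as a share of the range, passed Dixon's 95% critical value for 4 samples, and chance gives about 1 in 20. For Ccnd2 these were WT myoblasts (0.985, replicate 2 high) and KO myotubes (0.873, replicate 2 with 0 reads). For Cdkn1a it was WT myotubes (0.906, replicate 3 high). The log2 ratios of Ccnd3 to Ccnd1 (0.907) and of Cdkn1a to Ccnd1 (0.862) were set apart in WT myotubes by replicate 2, which had the highest Ccnd1, and the ratio of Rbl2 to Rbl1 in WT myoblasts (0.869) by replicate 4.

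The change with differentiation differed between the genotypes for 7 pathway genes by limma's interaction term with Benjamini-Hochberg adjustment. It was lower in KO cells for Ccna2 (-1.42, adjusted p = 0.00168), Mki67 (-1.58, adjusted p = 0.00547), Mcm5 (-1.54, adjusted p = 0.00325), Mcm6 (-1.48, adjusted p = 0.00332), Mcm3 (-0.84, adjusted p = 0.0381) and Cdkn2c (-1.10, adjusted p = 0.0320), the gene of the INK4 inhibitor p18. It was higher in KO cells for E2f2 (1.65, adjusted p = 0.0303), which started from the low level of KO myoblasts. The E2f2 call was lost without both shallow KO myotube samples, or without any 1 of WT myoblast replicates 1, 3 and 4, WT myotube replicates 1 and 4, KO myoblast replicate 4 and KO myotube replicate 4. The Cdkn2c call was lost without any 1 of 8 samples, which were WT myoblast replicates 2, 3 and 4, WT myotube replicates 1 and 3, and KO myoblast replicates 1, 3 and 4 (highest adjusted p = 0.0827). Mcm3 kept the call without 5 of the 16 samples (highest adjusted p = 0.0763), losing it without any 1 of the 4 WT myoblasts, WT myotube replicates 2 and 4, KO myoblast replicates 1, 2 and 4, and KO myotube replicates 1 and 3. Ccna2, Mcm5, Mcm6 and Mki67 kept it without each of the 16 samples. The 7 pathway genes made up 12.5% of the tested G1/S genes, 6.25% of the E2F, DP and MuvB genes and 26.67% of the S phase genes. The share of all genes was 3.45%. None of the 10 members was among the 7.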

How the results depend on the processing

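Across 1380 recomputed member values, 1344 stayed on their side of the threshold, 17 lost the call and 15 gained it. The other 4, uncalled in both fits, changed sign, by at least the standard error of the main fit. Uncalled values among the 1344 could change sign by less, as Cdk6 in KO against WT myotubes (-0.16) reached 0.0064 with 1 sample left out. No value called in either fit changed sign. In WT differentiation 6 called members became 3 at an adjusted p under 0.01 and 3 when a log2 change of 1 or more was also required. In KO against WT myotubes 5 became 3 under either of these thresholds, 3 when only the samples compared were fitted, and 3 without both shallow KO myotube samples, a choice made after seeing the data. Calls over all genes fell too. In WT differentiation 2474 became 1269 and 1259 under the 2 thresholds. In KO against WT myotubes 2521 became 1349 and 1379, 1565 with only the samples compared, and 2207 without both shallow samples. With limma sample weights 3 members gained the interaction call, Ccnd1 (1.17, adjusted p = 0.00156), Cdk6 (0.88, adjusted p = 0.00926) and Cdkn1b (-1.01, adjusted p = 0.0141), and Ccnd1 was lower in KO myoblasts (-0.38, adjusted p = 0.0226). Those weights also raised the interaction calls over all 10767 genes from 371 to 1221, and the calls between genotypes in myoblasts from 1697 to 3773. Leaving out 1 sample at a time gave 4 to 6 members in WT and 5 to 6 in KO differentiation, 6 to 6 in KO against WT myoblasts, 3 to 6 in myotubes (3 without WT myotube replicate 3) and 0 to 2 for the interaction. Without KO myotube replicate 2, the interaction was called for Cdk6 (1.04, adjusted p = 0.0260) and Cdkn1b (-1.17, adjusted p = 0.0310), and without KO myotube replicate 1 for Rbl1 (-2.67, adjusted p = 0.0472). For the ratios, 90 of 132 recomputed tests lost the call, since 3 against 4 samples cannot give an exact p below 0.0571 and 4 pairs cannot give one below 0.125, while no ratio changed direction.

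Deviations of samples with the same replicate number in 2 groups correlated at -0.223 to 0.369, and those with different numbers at -0.35 to 0.37. Of 16 samples, 0 correlated best with their own number throughout. The values thus showed no pairing by number, but they cannot tell whether samples with the same number shared a culture or day. With the number as a replicate block, member calls were 6, 5, 6, 5 and 0 in the order above, as without it. The counts for the 3 pathway lists moved by over 1.5 times in 64 of 447 recomputations. Depth limits Ccnd2, Rbl1 and Rbl2 most, with 0 to 62 reads per sample.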
